A study of Mus musculus with 48 samples.

Results

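The 10 genes described here encode transcription factors of the mesenchyme that fills the vertebrate limb bud: Prrx1, Prrx2, Twist1, Twist2, Msx1, Msx2, Tbx15, Shox2, Osr1 and Osr2. They were taken by name as a family of limb factors, with no measured value in the rule, and make up 10 of the 55487 genes of the count table. All 10 passed the filter on low counts and were among the 17494 genes tested. Cells came from the limbs of 3-day-old C57BL/6 pups and were sorted into 3 populations of the skeletal lineage. Skeletal stem cells are abbreviated SSC. The bone, cartilage and stromal progenitor is abbreviated BCSP, and the population placed before it pBCSP. Every donor carried floxed Ptip alleles, either without a Cre transgene (Ptipf/f, called WT here) or with Cre driven by Col2a1 regulatory sequence (Ptipf/f;Col2a1-cre, called KO here). Col2a1 is the gene of the main cartilage collagen, so deletion follows the cells and forebears in which that promoter was active, and no library of Cre without floxed alleles was among those analysed. The Ptip gene (current symbol Paxip1) makes a scaffold protein of complexes that methylate histone H3 at lysine 4. Each of the 6 groups had 2 RNA libraries, 2 libraries for the acetylation mark H3K27ac, and 1 library each for the methylation marks H3K4me1 and H3K4me3. The labels do not say whether replicates came from separate animals, or whether animals were pooled, so p-values measure only the spread between these libraries, which may be technical.

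Limb mesenchyme arises from lateral plate mesoderm and gives rise to cartilage, bone, tendon sheath and connective tissue of the limb. Prrx1 and Prrx2 are paired-type homeodomain proteins that mark this mesenchyme and act in part redundantly in skeletal growth. Twist1 and Twist2 are basic helix-loop-helix (bHLH) proteins that hold cells in a mesenchymal, undifferentiated state and restrain Runx2 in bone formation. Msx1 and Msx2 are homeodomain repressors downstream of BMP signals. Tbx15 is a T-box factor of the mesenchyme around cartilage condensations, Shox2 is a homeodomain factor required for growth of the proximal limb skeleton, and Osr1 and Osr2 are zinc finger proteins of joint-forming and connective tissue cells.

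The 12 RNA libraries held 15495915 to 22670899 counts. A read was present for 20965 to 23831 genes in 11 of them and for 13987 genes in SSC KO replicate 2. The targeted gene Paxip1 lay between 7.25 and 14.6 CPM (counts scaled to a common library size) in the 6 WT libraries and between 0 and 3.48 CPM in the 6 KO libraries, with no overlap. Paxip1 fell by 4.52 ± 0.76 log2 (SE) when the 3 populations were averaged (edgeR adjusted p = 0.0396). Over 18 alternatives the value lay between -6.08 and -3.69 log2 and the adjusted p between 1.65e-11 and 0.194, and the call was lost in 10, each of which leaves out 1 library or all SSC libraries. Paxip1 was higher in replicate 1 than in replicate 2 of each KO group, with 0.347 against 0 CPM for SSC, 0.568 against 0.0904 CPM for pBCSP and 3.48 against 0.791 CPM for BCSP. Of the surface protein genes of the sorting scheme, Cd200 and Eng followed the populations. Cd200 was at 198 to 303 CPM in SSC libraries and at 13.2 to 27.7 CPM in pBCSP libraries. Eng was at 72.8 to 168 CPM in BCSP libraries and at 25.1 to 34.3 CPM in the others. Itgav was at 59.9 to 71.7 CPM in WT. Its KO values, replicate 1 first, were 64.4 and 16.5 CPM in SSC, 40.9 and 28.2 in pBCSP and 57.9 and 32.2 in BCSP. Enpep was at 1.61 to 7.4 CPM in WT and 0 to 4.16 CPM in KO. Thy1 and Ptprc did not exceed 0.316 and 0.579 CPM in any library. Sox9 was at 1240 CPM or more throughout. Immediate early genes, a list of 10 genes that tissue dissociation induces, summed to 13000 to 17400 CPM in the WT libraries and in replicate 1 of each KO group. In replicate 2 of each KO group they summed to 2730 CPM in SSC, 1070 CPM in pBCSP and 4140 CPM in BCSP. The same KO libraries thus differ in Paxip1, in Itgav, in immediate early genes and in several member values given below. The part of Paxip1, Itgav and immediate early genes in the member values was not tested. Where the 3 KO libraries of 1 number are left out together, each KO group holds 1 library and the fit takes its spread from the WT pairs. The median difference between replicates was 0.30 to 0.37 log2 in WT and 0.54 to 0.98 in KO, and 9529 of 17494 genes passed without the KO libraries numbered 1. Member values of those fits are therefore given as log2 values only. Their calls are counted in the closing section on processing and are not read as tests. Where 1 library is left out, its partner is assumed to vary like the other groups. Without SSC KO replicate 1, SSC KO is replicate 2 alone, and the widest replicate difference (median 0.98 log2) leaves the fit. Member values without 1 library are therefore also given as log2 values only. Ranges of adjusted p over the alternatives do include those fits.

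Promoter sequences of 7 members were found in RefSeq on build GRCm38.p6: Prrx1, Prrx2, Twist1, Twist2, Msx1, Msx2 and Shox2. Those of 3 genes on which the results turn are printed here 5′ to 3′ on the strand of the gene, from 250 bases before to 50 bases after the annotated start. They show how differently composed these windows are, including those of the paralogs Prrx1 and Prrx2. The start used for Prrx1 (163313650) lies inside its gene span, whose 5′ end is at 163315145. That used for Prrx2 (30845367) also lies inside the span, which begins at 30845064. For these paralogs the sequence at the outer end of the span was not examined. Capitals mark 5 motifs, each searched on both strands: the E-box CANNTG bound by bHLH proteins, the homeodomain core TAATTA, the GC box GGGCGG, the TATA box TATAAA and the CCAAT box CCAAT. None of these words contains another, though neighbouring matches may share bases.
Prrx1: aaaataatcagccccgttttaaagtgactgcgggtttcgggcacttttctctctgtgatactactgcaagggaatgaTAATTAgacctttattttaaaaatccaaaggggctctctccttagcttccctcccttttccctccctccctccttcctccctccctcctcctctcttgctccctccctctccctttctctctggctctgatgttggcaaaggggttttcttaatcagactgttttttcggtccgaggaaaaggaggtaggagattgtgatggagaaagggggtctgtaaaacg
Prrx2: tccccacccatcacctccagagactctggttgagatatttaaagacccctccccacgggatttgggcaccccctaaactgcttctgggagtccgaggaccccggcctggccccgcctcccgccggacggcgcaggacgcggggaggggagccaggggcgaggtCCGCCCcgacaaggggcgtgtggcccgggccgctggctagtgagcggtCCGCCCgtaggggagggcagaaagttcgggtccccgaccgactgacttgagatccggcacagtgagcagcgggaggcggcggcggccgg
Shox2: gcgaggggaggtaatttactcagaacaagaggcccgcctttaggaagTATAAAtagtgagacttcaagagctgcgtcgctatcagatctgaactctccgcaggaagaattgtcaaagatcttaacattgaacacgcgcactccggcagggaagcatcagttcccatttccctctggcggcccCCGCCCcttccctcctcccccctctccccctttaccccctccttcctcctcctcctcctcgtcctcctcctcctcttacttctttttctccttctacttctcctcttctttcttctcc
The Prrx1 window (chr1:163313601-163313900, minus strand) held 47.7% G and C with a ratio of observed to expected CpG of 0.36. The Prrx2 window (chr2:30845117-30845416, plus strand) held 70.3% with a ratio of 0.76, and the Shox2 window (chr3:66981722-66982021, minus strand) held 53.3% with a ratio of 0.61. Over all 32851 RefSeq promoter windows the medians were 52.7% and 0.38, so Prrx1 was near the middle in CpG content and the other 6 members, at ratios of 0.61 to 0.83, were above it. The single match in Prrx1 was TAATTA, a word found in 5.29% of all windows. Among the 7 members Msx2 was the other gene with TAATTA. Shox2 and Twist1 held a TATAAA, which 13.6% of windows hold. GGGCGG or its complement was in 6 of the 7, all but Prrx1, against 35.7% of windows, with 2 matches in Prrx2 and 4 in Twist2. CCAAT was in Twist1, Twist2, Msx1 and Msx2, against 37.4% of windows. The E-box was in Msx1 and Msx2 only, against 72.3% of windows. A match is a description of these letters, not a site.

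In WT cells the members had higher fitted levels in pBCSP than in SSC. The difference was above 0 for 10 of 10 members, with a median of 0.90 log2, against 51.9% of all genes and a median of 0.02. Between WT BCSP and WT SSC it was above 0 for 8 of 10, with a median of 0.75 log2, against 45.3% of all genes and a median of -0.05. Between WT BCSP and WT pBCSP it was above 0 for 3 of 10, with a median of -0.20 log2, against 47.0% of all genes. No gene passed in any of these 3 comparisons (percent called 0, 0 and 0 of the 17494 genes in edgeR, with 330, 608 and 458 genes at an unadjusted p under 0.05), and so no member did. These counts over members are descriptions, since all members were read in the same 6 libraries. Marker lists differed in the same libraries: between WT pBCSP and WT SSC, 8 of 8 endothelial genes (median 2.94 log2) and 7 of 7 leukocyte genes (2.0) were above 0, and 6 of 6 Schwann cell genes (-4.41) and 7 of 8 osteoblast genes (-3.33) were below. Their part in the member values was not tested.

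Osr1 had the largest difference between WT populations among the members. SSC libraries held 4.38 and 6.87 CPM, pBCSP libraries 23.3 and 22.2 CPM and BCSP libraries 53.4 and 43.6 CPM, and the 3 pairs of values did not overlap. Against SSC it was higher by 3.11 ± 0.69 log2 in BCSP (8.62-fold, adjusted p = 0.846 in edgeR, the gene ranked 27 of all by p) and by 2.02 ± 0.67 log2 in pBCSP (adjusted p = 1). DESeq2 gave an adjusted p of 0.00471 for the BCSP difference, with 77 genes called in that comparison against 0 in edgeR. Over 17 alternatives the BCSP to SSC difference of Osr1 lay between 2.82 and 3.47 log2, with adjusted p from 0.000392 to 1, and 2 of them called it.

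Shox2 was lowest in SSC and highest in pBCSP. The WT libraries of SSC held 13.9 and 16.7 CPM, those of pBCSP 55.2 and 56.6 CPM and those of BCSP 23.9 and 38.0 CPM, with no overlap between populations. The pBCSP to SSC difference was 1.87 ± 0.78 log2 (edgeR adjusted p = 1).

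Twist2 and Prrx1 followed the order of Osr1. WT Twist2 was at 1.38 and 0.836 CPM among SSC, at 2.49 and 2.27 CPM among pBCSP and at 5.03 and 6.07 CPM among BCSP, and the BCSP to SSC difference was 2.31 ± 1.35 log2 (edgeR adjusted p = 1). WT Prrx1 was at 33.0 and 24.8 CPM among SSC, at 46.6 and 59.4 CPM among pBCSP and at 61.4 and 60.6 CPM among BCSP, a BCSP to SSC difference of 1.08 ± 0.58 log2 (adjusted p = 1). The pBCSP and BCSP values of Prrx1 did not differ from each other beyond their spread (0.20 ± 0.57 log2).

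Msx1 and Msx2 were highest in pBCSP among the WT populations, without overlap. Msx1 lay at 27.5 and 35.0 CPM for pBCSP, against 19.1 and 22.1 CPM for SSC and 15.8 and 21.0 CPM for BCSP, a pBCSP to SSC difference of 0.60 ± 0.47 log2 (edgeR adjusted p = 1). Msx2 lay at 6.19 and 5.83 CPM for pBCSP, against 4.55 and 2.87 CPM for SSC and 2.81 and 2.14 CPM for BCSP, a pBCSP to SSC difference of 0.70 ± 1.39 log2 (adjusted p = 1).

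The WT populations overlapped in the other 4 members. Osr2 ranged from 70.9 to 144.5 CPM in SSC, 144 to 266 CPM in pBCSP and 119 to 222 CPM in BCSP. Tbx15 ranged from 20.4 to 61.6 CPM in SSC, 57.7 to 121 CPM in pBCSP and 56.2 to 89.5 CPM in BCSP. In both genes replicate 2 was the higher library of each WT pair, and within each replicate number the order was SSC, BCSP, pBCSP from low to high. Prrx2 and Twist1 lay between 2.81 and 10.2 CPM in all 6 WT libraries.

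**Figure D1:**
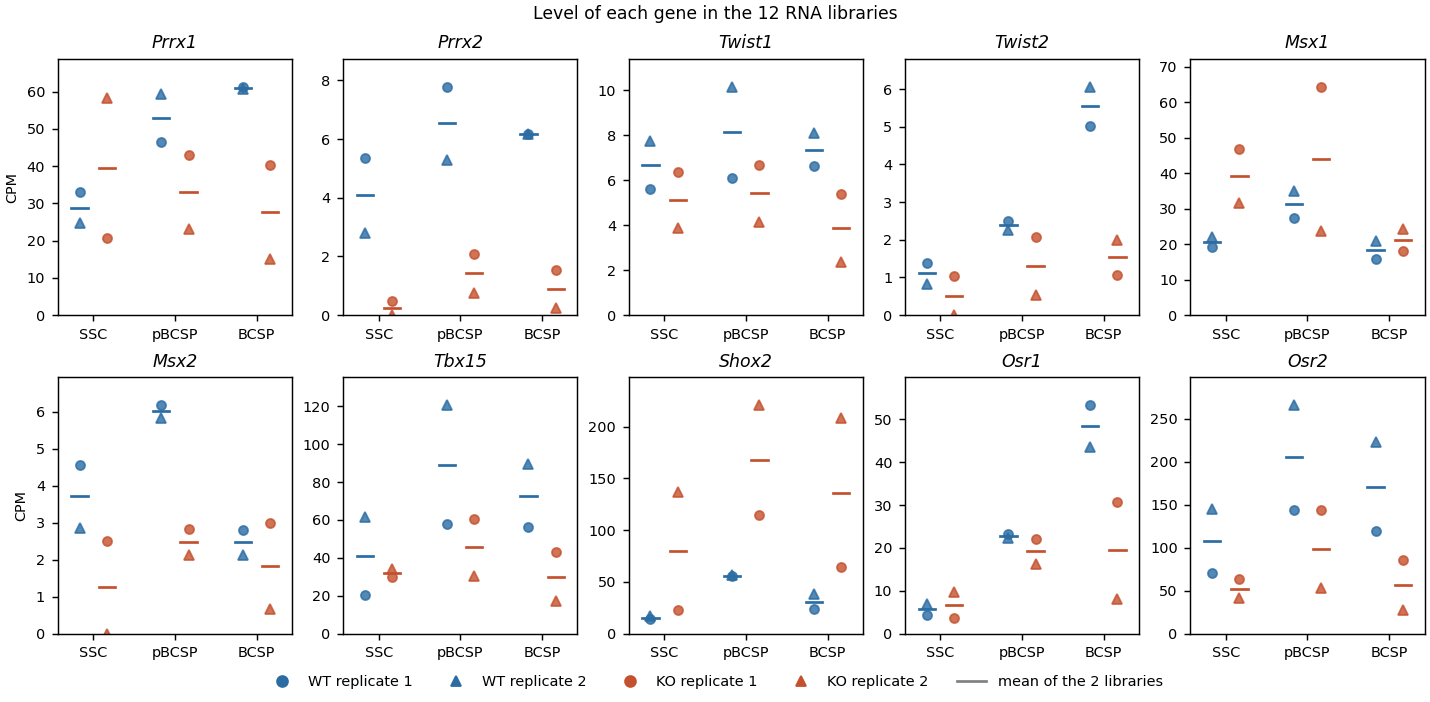
Level of each member in CPM (y axis, linear, from 0, with its own scale per gene) in SSC, pBCSP and BCSP (x axis). Points are single libraries, circles for replicate 1 and triangles for replicate 2, WT in blue and KO in orange, and bars are means of 2 libraries. Shox2 is higher in KO than in WT in each population, most so in replicate 2 (136, 221 and 208 CPM), and every Prrx2 value of KO is at or below 2.08 CPM while no WT value is below 2.81 CPM.

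Between KO and WT, Shox2 was the member with the largest upward difference and Prrx2 the member with the largest downward one. Averaged over the 3 populations, 2 of 10 members lay above 0 (Shox2 and Msx1) and 8 lay below, with a median of -0.75 log2 against -0.09 for all genes. No member passed the test. The average comparison called 205 of 17494 genes in edgeR (1.17%; 169 higher and 36 lower; between 0 and 6147 when single libraries were left out, the highest without SSC KO replicate 1), and 4 of the 10 members had an unadjusted p under 0.05, against 19.6% of all genes. In each population, and in the test of whether the KO effect differed between populations, no gene was called (percent called 0 in SSC, 0 in pBCSP, 0 in BCSP and 0 for the difference; 1643, 1096, 1095 and 240 genes at an unadjusted p under 0.05). By population the median over the members was -0.37 log2 in SSC, -0.77 in pBCSP and -1.21 in BCSP, against -0.22, -0.03 and -0.01 over all genes. In bulk samples such as these, fewer cells that express a gene and less RNA per cell cannot be told apart.

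The order of the libraries was counted as well. Over all 12 libraries, Prrx2 was the member whose KO values all lay below its WT values, which was so for 1.98% of all genes, and no member had all KO values above all WT values, which was so for 3.08%. Within SSC, KO lay above WT in 2 members (13.7% of all genes) and below in 3 (25.8%). Within pBCSP it lay above in 1 (21.2%) and below in 6 (24.0%). Within BCSP it lay above in 1 (24.2%) and below in 7 (26.4%). Shox2 was above in each of the 3 populations, and Prrx2 and Osr2 were below in each.

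**Figure D2:**
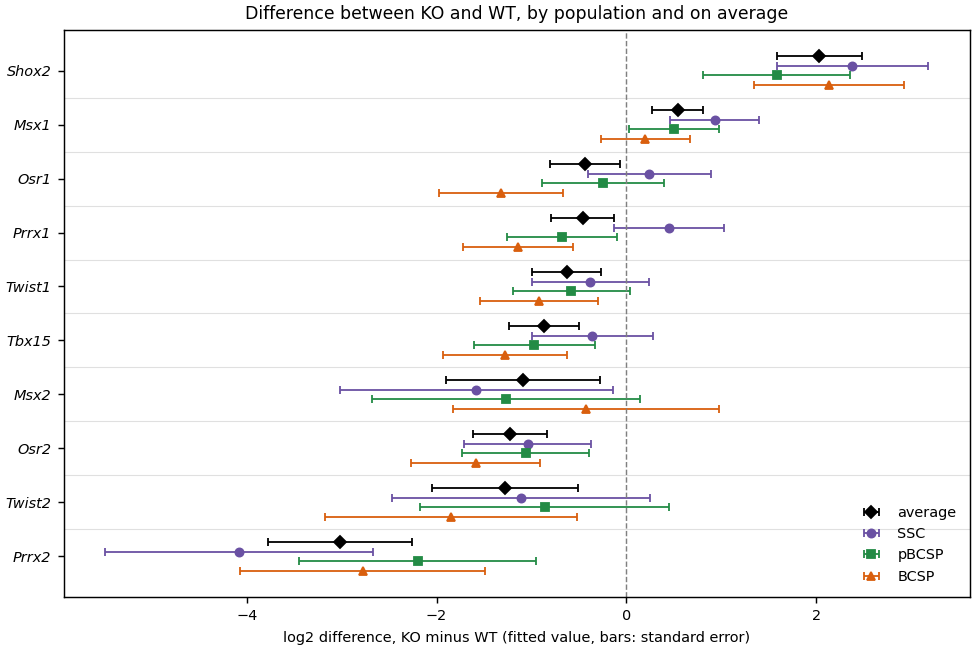
Fitted log2 difference between KO and WT (x axis, KO minus WT, bars are the standard error) for each member (y axis, ordered by the average). Black diamonds are the average over populations (6 libraries per genotype) and coloured symbols are the populations (2 libraries per group). Shox2 lies at 2.03 ± 0.45 and Prrx2 at -3.02 ± 0.76 on average, and Prrx1 and Osr1 lie on opposite sides of 0 in SSC and BCSP.

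Shox2 (ENSMUSG00000027833; GRCm38.p6 chromosome 3, 66971723 to 66981771, minus strand) was at 23.2 and 136 CPM in SSC KO, 114 and 221 CPM in pBCSP KO and 64.1 and 208 CPM in BCSP KO. In each population both KO libraries were above both WT libraries, and replicate 2 was the higher of the KO pair. The average difference was 2.03 ± 0.45 log2 (4.09-fold, edgeR adjusted p = 0.0689, 6 of 6 KO libraries above the WT mean of their population). The differences were 2.38 ± 0.80 log2 in SSC, 1.58 ± 0.77 in pBCSP and 2.13 ± 0.79 in BCSP (adjusted p = 0.524, 0.793 and 0.71), and they were not shown to differ from each other (interaction adjusted p = 1). DESeq2 called the average (adjusted p = 0.000831), with 1693 genes called in that comparison against 205 in edgeR. The size rested on replicate 2 of the KO groups, in which immediate early genes were low: without those 3 libraries the difference was 0.89 log2, and without the 3 KO libraries numbered 1 it was 2.61 log2. The value was 2.3 log2 without SSC KO replicate 1 and 2.23 log2 without BCSP KO replicate 1, each of which leaves 1 library in that KO group. Over 18 alternatives the value lay between 1.43 and 2.3 and the adjusted p between 1.44e-12 and 0.249. The span of Shox2 is overlapped by the protein-coding gene Rsrc1, and since the strand of counting is not given, reads of the 2 genes may not have been separated where they share sequence.

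Prrx2 (ENSMUSG00000039476; chromosome 2, 30845064 to 30881251, plus strand) was at 5.36 and 2.81 CPM in SSC WT against 0.485 and 0 CPM in SSC KO. The count of 0 allows up to 0.166 CPM. It was at 7.79 and 5.29 CPM in pBCSP WT against 2.08 and 0.769 CPM in KO, and at 6.16 and 6.18 CPM in BCSP WT against 1.53 and 0.243 CPM in KO. The highest KO value of all was thus below the lowest WT value. The average difference was -3.02 ± 0.76 log2 (8.13-fold lower, edgeR adjusted p = 0.0885). All 6 of 6 KO libraries were below the mean of WT. In the populations it was -4.08 ± 1.41 in SSC, -2.20 ± 1.25 in pBCSP and -2.78 ± 1.29 in BCSP, and none passed. DESeq2 called the average (adjusted p = 0.000163), as 1 of 1693 genes, against 205 genes called in edgeR. The average was -4.73 log2 without SSC KO replicate 1, which leaves 1 SSC KO library, at 0 CPM. The value was -2.24 log2 without the KO libraries numbered 2 and -5.67 log2 without those numbered 1. Over 18 alternatives the adjusted p lay between 0.000163 and 0.277.

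Prrx1 (ENSMUSG00000026586; chromosome 1, 163245119 to 163315145, minus strand), the paralog of Prrx2, was at 20.6 and 58.4 CPM in SSC KO, on either side of its WT values. In pBCSP KO it was at 43.0 and 23.2 CPM and in BCSP KO at 40.3 and 15.0 CPM, below both WT libraries in each case. The differences were 0.45 ± 0.58 log2 in SSC, -0.68 ± 0.58 in pBCSP and -1.14 ± 0.58 in BCSP, with an average of -0.46 ± 0.33 (edgeR adjusted p = 0.476). The direction in SSC turned with 1 library: without SSC KO replicate 2 the difference was -0.49 log2. The difference between populations had an unadjusted p of 0.188 and an adjusted p of 1. The average passed in 0 of 18 alternatives, with adjusted p between 0.19 and 0.774. RefSeq places the non-coding genes LOC108167740 and Gm20471 across the Prrx1 span.

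Osr2 (ENSMUSG00000022330; chromosome 15, 35296098 to 35303305) was at 63.1 and 41.4 CPM in SSC KO, 143 and 53.4 CPM in pBCSP KO and 86.0 and 27.1 CPM in BCSP KO. KO lay below WT in each population, in pBCSP by a narrow margin (143.4 against 143.9 CPM). The average difference was -1.23 ± 0.39 log2 (2.35-fold lower, edgeR adjusted p = 0.143, lower in 6 of 6 KO libraries). DESeq2 called it (adjusted p = 0.0377), with 1693 genes called in that comparison against 205 in edgeR. Without SSC KO replicate 1 the value was -1.33 log2. Over 18 alternatives the adjusted p lay between 1.95e-05 and 0.384. The value was -0.76 log2 without the KO libraries numbered 2 and -2.01 log2 without those numbered 1.

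Osr1 (ENSMUSG00000048387; chromosome 12, 9574442 to 9581500) had its largest difference in BCSP. It was at 3.54 and 9.70 CPM in SSC KO, overlapping WT, at 22.0 and 16.3 CPM in pBCSP KO, and at 30.8 and 8.15 CPM in BCSP KO. The BCSP difference was -1.32 ± 0.65 log2 (2.49-fold lower, edgeR adjusted p = 0.829), against -0.25 ± 0.64 in pBCSP and 0.24 ± 0.65 in SSC. The difference between populations had an adjusted p of 1. The 3 WT populations were separated in Osr1, while the KO libraries of pBCSP and BCSP overlapped each other. The average difference was -0.44 ± 0.37 log2 (edgeR adjusted p = 0.537), and it passed in 0 of 18 alternatives. The SSC value became -0.06 without SSC WT replicate 1 and -0.67 without SSC KO replicate 2.

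Tbx15 (ENSMUSG00000027868; chromosome 3, 99240348 to 99354260) was at 30.1 and 34.0 CPM in SSC KO, 60.4 and 30.6 CPM in pBCSP KO and 43.1 and 17.0 CPM in BCSP KO. In BCSP both KO libraries were below both WT libraries, and in SSC and pBCSP the genotypes overlapped. The average difference was -0.87 ± 0.37 log2 (1.82-fold lower, edgeR adjusted p = 0.24, lower in 6 of 6 KO libraries). The SSC value of -0.36 ± 0.64 turned to 0.64 without SSC WT replicate 2. Over 18 alternatives the adjusted p lay between 0.025, without a filter on low counts, and 0.581. RefSeq lists the non-coding genes Gm46817 and Gm52611 across this span.

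Twist1 (ENSMUSG00000035799; chromosome 12, 33957671 to 33959831) was at 6.38 and 3.88 CPM in SSC KO, 6.69 and 4.16 CPM in pBCSP KO and 5.38 and 2.37 CPM in BCSP KO, against WT values of 5.59 to 10.2 CPM. Each KO library was below the WT mean of its population, but the genotypes separated in BCSP only. The average difference was -0.63 ± 0.36 log2 (edgeR adjusted p = 0.361). Twist2 (ENSMUSG00000007805; chromosome 1, 91801461 to 91848034) was at 1.04 and 0 CPM in SSC KO, 2.08 and 0.543 CPM in pBCSP KO and 1.05 and 2.01 CPM in BCSP KO. The separation was widest in BCSP, where WT was at 5.03 and 6.07 CPM. The average Twist2 difference was -1.28 ± 0.77 log2 (adjusted p = 0.388, lower in 6 of 6 KO libraries). At these counts the standard errors of Twist2 span more than a 2-fold range in either direction in each population (1.31 to 1.36 log2). Without the KO libraries numbered 1 the values were -1.14 log2 for Twist1 and -3.67 log2 for Twist2, and without those numbered 2 they were -0.26 and -0.89 log2. Twist2 was at -3.36 log2 without SSC KO replicate 1, which leaves 1 SSC KO library, at 0 CPM. Over 18 alternatives the adjusted p lay between 0.104 and 0.738 for Twist1 and between 0.00719 and 0.618 for Twist2. RefSeq lists Gm46117 across the Twist2 span.

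Msx1 (ENSMUSG00000048450; chromosome 5, 37820491 to 37824585) and Msx2 (ENSMUSG00000021469; chromosome 13, 53466881 to 53472780) had average differences of opposite sign, and neither passed. Msx1 was at 46.9 and 31.6 CPM in SSC KO, both above WT, at 64.5 and 23.8 CPM in pBCSP KO, on either side of WT, and at 18.2 and 24.2 CPM in BCSP KO. Its average difference was 0.54 ± 0.27 log2 (edgeR adjusted p = 0.299, 4 of 6 KO libraries above the WT mean). Without pBCSP KO replicate 1 the pBCSP value of 0.50 ± 0.47 log2 became -0.39. Msx2 was at 2.5 and 0 CPM in SSC KO, 2.84 and 2.13 CPM in pBCSP KO and 3.00 and 0.669 CPM in BCSP KO, and its average difference was -1.09 ± 0.81 log2 (adjusted p = 0.486, lower in 5 of 6 KO libraries). The average Msx2 difference lay between -3.59 log2, without SSC KO replicate 1 (SSC KO then at 0 CPM), and -0.76 log2 over 18 alternatives. The value was -4.18 log2 without the KO libraries numbered 1 and -0.46 log2 without those numbered 2. The BCSP value of Msx2, -0.43 ± 1.40 log2, turned to 0.28 without BCSP KO replicate 2, and that of Msx1, 0.20 ± 0.47, to -0.02. Msx1 is overlapped by its antisense gene Msx1os and Msx2 by Gm33763, and the counts of Msx1 and Msx1os may not be separated.

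No gene of 4 lists of related genes was called in the average comparison. Signals upstream of the members, a list of 13 BMP and FGF pathway genes, had 0 genes called in either direction and a median of -0.36 log2, with 2 above 0 and 11 below. The smallest p values were those of Bmp4, the BMP ligand that induces Msx genes (-1.19 ± 0.46 log2, edgeR adjusted p = 0.202), the BMP antagonist Grem1 (1.68 ± 0.66, 0.21) and the BMP effector Smad1 (-0.62 ± 0.34, 0.342). Among 8 bHLH partners of Twist proteins and inhibitors of such partners, 0 were called and the median was -0.40 log2, with 7 below 0. Id2 (-0.46 ± 0.16, 0.167) and Id4 (-0.49 ± 0.23, 0.274), which sequester bHLH proteins, and the partner Tcf12 (-0.99 ± 0.47, 0.277) had the smallest p values.

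Among 26 other limb bud transcription factors, 22 were tested and 0 called, with a median of -0.27 log2. Tbx5, the T-box factor of forelimb identity, was higher by 1.21 ± 0.30 log2 (edgeR adjusted p = 0.0866, 6 of 6 KO libraries above the WT mean). Tbx3 (-0.91 ± 0.29, 0.143) and Tbx2 (-1.96 ± 0.67, 0.163), T-box repressors of limb patterning, were lower in 6 of 6 KO libraries. Of 12 genes of the mesenchymal state, 11 were tested and 0 called. Their median was -0.74 log2 with 9 of the 11 below 0, close to the -0.75 of the members. Pdgfra, the receptor that marks mesenchymal progenitors (-0.94 ± 0.24, 0.0885), Cdh11, a mesenchymal cadherin (-1.18 ± 0.34, 0.113), and Foxc2 (-0.56 ± 0.19, 0.153) had the smallest p values.

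Markers of other cell states differed between the same libraries, and their part in the member values was not tested. The 8 osteoblast genes summed to 14900 to 41400 CPM in WT and 7280 to 20900 CPM in KO, with 0 called, 7 of 8 below 0 and a median of -1.27 log2. The 12 chondrocyte genes summed to 30700 to 85100 CPM in WT and 50600 to 78400 CPM in KO. In the average comparison 11 of 12 lay above 0, with a median of 1.04 log2. Of the 12, 6 were called higher, where 1.17% of all genes were called. Endothelial genes summed to 6.92 to 61.7 CPM in WT and 4.34 to 29.6 CPM in KO, and erythroid genes to 22.3 to 260 CPM and 1.76 to 31.9 CPM. No gene of either list was called, with 7 of 8 endothelial and 7 of 7 tested erythroid genes below 0. Tendon genes summed to 3700 to 8250 CPM in WT and 4110 to 9830 CPM in KO, with 0 of 5 called. Among 7 tested genes each of the leukocyte, skeletal muscle and pericyte lists 0 were called, as were 0 of 5 adipocyte genes, 0 of 5 genes of the sorting scheme and 0 of 10 immediate early genes. Pericyte genes lay below 0 in 6 of 7 (median -1.49 log2), while their sums were 328 to 694 CPM in WT and 322 to 634 CPM in KO. Adipocyte genes lay below 0 in 5 of 5 (-2.28), with sums of 27.5 to 291 CPM in WT and 8.09 to 164 CPM in KO. Genes of the sorting scheme lay below 0 in 5 of 5 (-0.71). Of 6 Schwann cell genes 1 rose, and the other 5 lay below 0 (median of all 6, -2.16 log2). In SSC KO replicate 2, 7 of 8 endothelial and 6 of 10 leukocyte genes were at 0, against at most 1 of each list in the other SSC libraries, while no chondrocyte or immediate early gene was at 0 in any library. The leukocyte genes summed to no more than 41.5 CPM in WT and 72.4 CPM in KO. The sum of 72.4 CPM was that of SSC KO replicate 2, against 6.86 to 11.3 CPM in the other SSC libraries.

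The genes outside the set whose log2 CPM over the 12 libraries was most like that of Prrx1 were Fat4 (Pearson r = 0.956), 2410021H03Rik (0.941) and Adamts16 (0.927). Fat4, an atypical cadherin, repeated the split of the SSC KO libraries: it was at 2.43 and 14.7 CPM there, 4.32 and 4.36 CPM in SSC WT, and 4.95 and 1.95 CPM in BCSP KO. For Shox2 they were Dpf1 (0.939), Ccdc15 (0.929) and H2-Q7 (0.927). Dpf1 was at 16.1, 22.2 and 19.0 CPM in replicate 2 of the KO groups and at 5.30 to 14.3 CPM in the other 9 libraries. These correlations describe 12 libraries that share their populations and genotypes, and carry no test.

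The chromatin lists were read at the same genes. H3K4me3, a mark of active or poised promoters, covered the start of all 7 members with an annotated start, within 1 kb on either side, in each of the 6 lists. Of all 27025 genes with a start, 51.5% had such a peak in SSC WT, 53.7% in SSC KO, 50.5% in pBCSP WT, 49.9% in pBCSP KO, 51.6% in BCSP WT and 52.6% in BCSP KO. All 10 members had an H3K4me3 peak in the gene span in every list, against 69.2%, 71.2%, 68.3%, 67.7%, 69.4% and 70.2% of protein-coding genes in the same order. Prrx2, the member whose RNA differed most between genotypes, thus had a promoter peak in each KO list, and its widest peak measured 2649, 2271 and 3009 bases in KO of SSC, pBCSP and BCSP. With 1 list per group there is no replicate check on any of these values.

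The members differed widely in the breadth of H3K4me3. The widest peak touching Tbx15 was 10223, 12497 and 12539 bases long in SSC, pBCSP and BCSP of WT, wider than in 99.7% to 99.9% of protein-coding genes with a peak. Osr2 followed at 8536, 10011 and 9892 bases and Prrx1 at 7403, 6928 and 7711 bases, both above at least 98.6% of genes. Prrx2 was at 1013, 2106 and 2509 bases, wider than 9.9%, 56.4% and 64.7% of genes, where the medians over genes were 2100, 1949 and 2078 bases, and Msx2 at 2544, 1653 and 1468 bases. Of the paralogs Prrx1 and Prrx2, Prrx1 had the wider mark and the lower CpG ratio in its printed window. Each window is 300 bases at a start inside the gene span. The CpG content of the marked regions was not measured.

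In KO the widest H3K4me3 peak was longer than in WT in 28 of 30 combinations of member and population. It was longer for 10 of 10 members in SSC, where it was so for 85.0% of protein-coding genes, and for 10 of 10 in BCSP, against 75.8%. In pBCSP it was longer for 8 of 10 members, against 39.0% of genes, with a median ratio of 1.14 over the members and 0.97 over all genes. The exceptions were Tbx15 and Shox2 in pBCSP, at 0.85 and 0.97 of the WT width. The widest peak was longer in all 3 populations for 8 of 10 members, against 28.5% of genes. Those 8 include Twist2 and Osr2, at ratios of only 1.01 in pBCSP. Bases of the span covered by H3K4me3 peaks were more in KO for 9 of 10 members in SSC (82.3% of genes), 6 in pBCSP (37.2%) and 9 in BCSP (72.7%). In pBCSP the median ratio of that measure was 1.03 over the members and 0.96 over genes. The lists themselves differed in length: KO lists held more H3K4me3 peaks than WT lists in SSC (42399 against 33510) and BCSP (38500 against 32132) and fewer in pBCSP (25468 against 28612). The median peak width in KO and WT was 1100 and 1083 bases in SSC, 1243 and 1163 in pBCSP and 1068 and 1110 in BCSP.

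**Figure D3:**
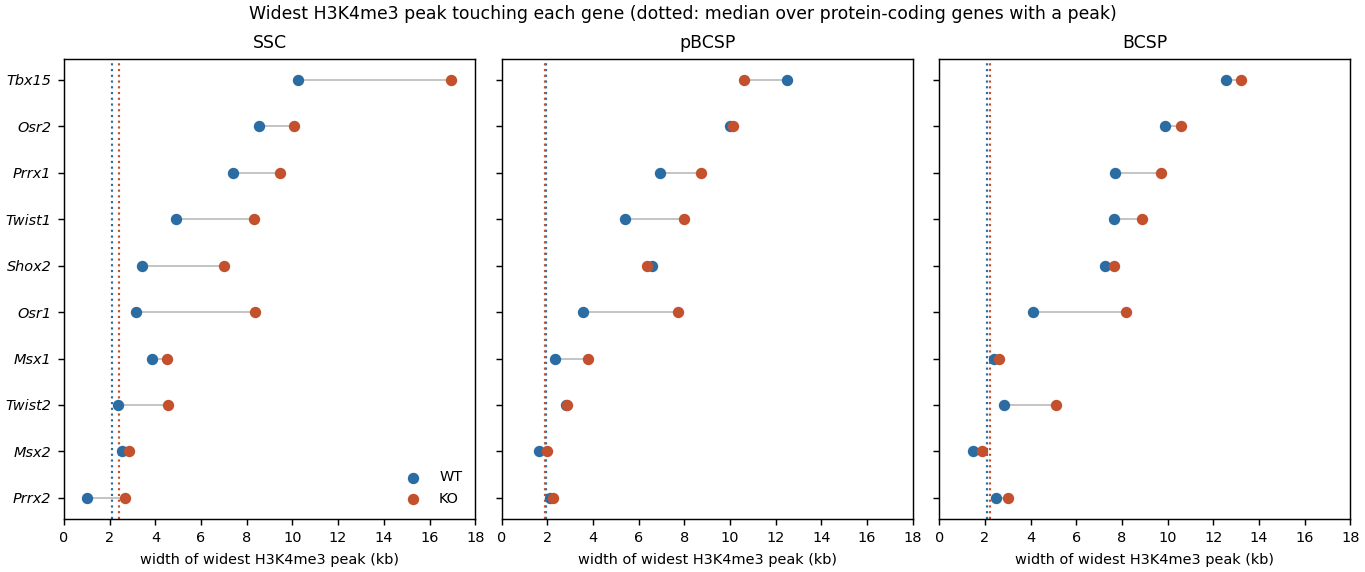
Width in kb of the widest H3K4me3 peak touching each member (x axis) for each gene (y axis, ordered by mean WT width) in SSC, pBCSP and BCSP. Blue points are WT and orange points KO, 1 peak list each, joined by grey lines, and dotted lines are medians over protein-coding genes with a peak. KO lies to the right of WT in 28 of 30 pairs, with Osr1 more than 2 times as wide in each population.

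Osr1 had the largest ratio of the 10 members in each population. In each WT list the gene carried 2 separate H3K4me3 peaks, of 3128 and 2165 bases in SSC, 3545 and 2043 bases in pBCSP and 4088 and 2339 bases in BCSP. In each KO list a single peak covered at least 99.0% of the gene span, 8361 bases long in SSC (chromosome 12, 9573455 to 9581815), 7705 in pBCSP and 8197 in BCSP. The widest peak was thus 2.67, 2.17 and 2.01 times as long as in WT. A ratio over 2 in all 3 populations was found for 15 of 14639 genes (0.102%). In a separate count, 2 or more WT peaks with 1 KO peak in every population were found for 13 of the 14639 genes (0.0888%). Osr1 was singled out after these values were seen. Its fold enrichment, the authors' value for each peak, was 10.8, 10.9 and 16.1 in the KO lists and 7.28, 12.1 and 13.9 at the taller WT peak. RNA of Osr1 was not higher in KO in pBCSP or BCSP.

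**Figure D4:**
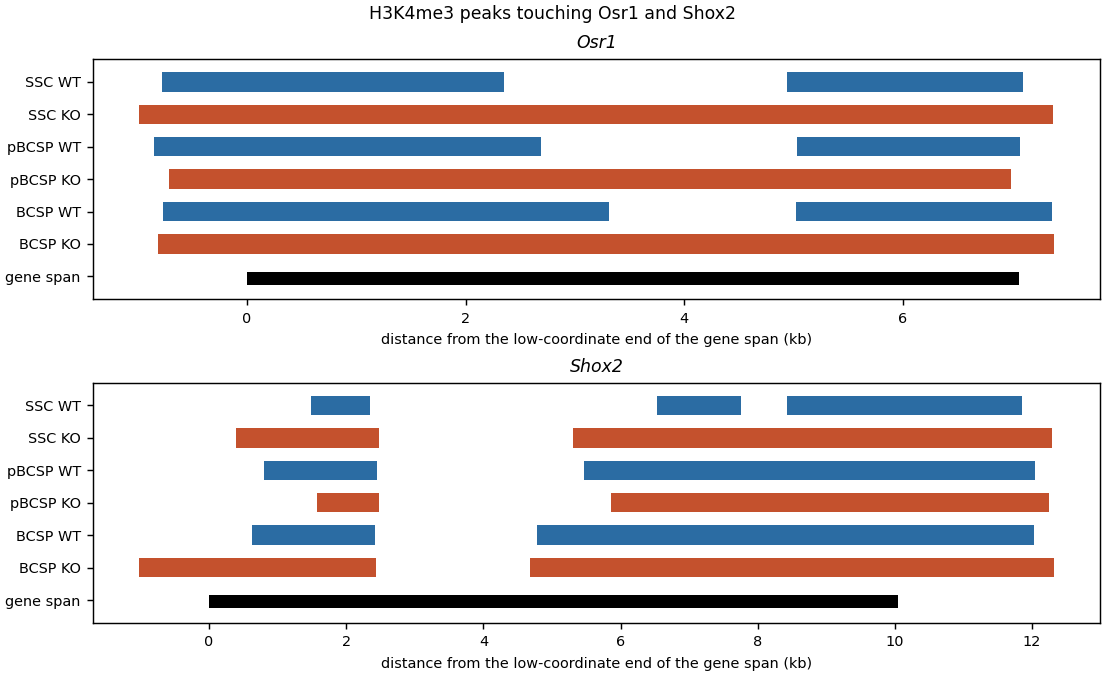
H3K4me3 peaks touching Osr1 and Shox2 in the 6 lists (rows, WT blue and KO orange) against distance in kb from the low-coordinate end of the gene span (x axis), with the gene span in black. Osr1 has 2 peaks in each WT list and 1 in each KO list, and Shox2 has 3 peaks in SSC WT and 2 in the other lists.

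Shox2, the member with the largest upward RNA difference, had a peak 2.04 times as wide in SSC KO as in SSC WT, against ratios of 0.97 in pBCSP and 1.05 in BCSP. Its widest peak was 3419 bases in SSC WT and 6989 in SSC KO, 6571 and 6386 in pBCSP, and 7240 and 7636 in BCSP. In SSC WT the region held a separate peak of 1225 bases (chromosome 3, 66978260 to 66979484) that the wider KO peak covers. Fold enrichment at the start was 9.29 and 10.97 in SSC, 13.3 and 10.3 in pBCSP and 13.07 and 12.04 in BCSP, WT first. In pBCSP, where Shox2 RNA was at 114 and 221 CPM in KO against 55.2 and 56.6 CPM in WT, the peak was no wider and its enrichment no higher.

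H3K4me1, which marks enhancers and the flanks of promoters, was at the start of 4 of 7 members in SSC WT (41.3% of genes) and of 7 in SSC KO (57.1%), with Twist1, Twist2 and Msx1 absent from the SSC WT list. It was at 7 of 7 in pBCSP WT (57.8%) and KO (60.3%), at 6 in BCSP WT (55.3%), all but Msx2, and at 7 in BCSP KO (60.6%). The SSC WT list was the shortest of the 6, with 75277 peaks against 113313 to 148530 in the others. The widest H3K4me1 peak in the span was longer in KO in all 3 populations for 7 of the 9 members with a peak in every list, against 49.7% of genes. Shox2 was the member with a ratio over 2 in all 3 (1.81% of genes), at 653, 2079 and 1389 bases in WT and 2850, 5509 and 4063 bases in KO. Bases of its span covered by H3K4me1 peaks were 653, 4685 and 3146 in WT and 2676, 5499 and 5712 in KO. The summed width of peaks at its start was 553, 3429 and 1905 bases in WT and 2850, 5509 and 1327 in KO, so it was smaller in KO in BCSP. Over the span of Tbx15, H3K4me1 covered 4.7% in SSC WT and 31.6% in SSC KO, 45.4% and 58.5% in pBCSP, and 30.9% and 49.1% in BCSP. Such cover was larger in KO for 94.4% of protein-coding genes in SSC, 70.9% in pBCSP and 82.3% in BCSP. The median ratios over those genes were 1.88, 1.17 and 1.37.

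Acetylation at H3K27, found at active regulatory elements, was at the start of 0 of 7 members in all 12 lists. In the broad-peak set the share of all genes with such a peak was 4.03% in SSC WT, 5.15% in SSC KO, 11.2% in pBCSP WT, 8.51% in pBCSP KO, 12.8% in BCSP WT and 10.1% in BCSP KO. In the narrow-peak set it was 0.163%, 1.34%, 4.52%, 1.45%, 0.488% and 11.4% in the same order. These lists were short, with 1828 to 7951 peaks in the broad set and 137 to 8572 in the narrow set, so no peak here says that a peak was not called, not that acetylation was absent.

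Inside the gene spans H3K27ac peaks were found at Tbx15, Prrx1 and Prrx2. In the broad set 0 of 10 members had a peak in SSC WT (5.72% of protein-coding genes) and SSC KO (6.82%), 1 in pBCSP WT (18.1%), 2 in pBCSP KO (13.5%), 2 in BCSP WT (18.8%) and 2 in BCSP KO (17.9%). In the narrow set there were 0 in SSC WT (0.370%), SSC KO (2.64%), pBCSP WT (8.69%), pBCSP KO (2.85%) and BCSP WT (2.16%), and 1 in BCSP KO (17.1%). Prrx2 was the member marked in both sets. In BCSP KO a narrow-set peak at chromosome 2, 30864572 to 30865161 (fold enrichment 6.37) overlapped a broad-set peak at 30864689 to 30864942 (3.81), inside the gene, and the broad set of pBCSP KO held a peak at 30864865 to 30865203. No WT list held a peak in the Prrx2 span, while its RNA was lower in KO in both populations. Prrx1 held 2 peaks in BCSP WT and 3 in BCSP KO, none of which overlapped between genotypes, and Tbx15 held 1 peak in pBCSP WT, 2 in pBCSP KO and 1 in BCSP WT.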

How the data were processed

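RNA was measured in 12 libraries of 2 per group, and 3 histone marks in 24 peak lists; 12 input libraries were not used. The deposited counts are whole-number counts per gene made by the authors, and per the submitters' processing notes the build was GRCm38 and the tools included MACS2 2.2.6, featureCounts 2.0.1, SAMtools 1.9, Bowtie2 2.3.5.1 and Trim Galore 0.6.6, with roles not assigned; the settings and the strand of counting were not given in the sources used here. Each deposited peak list is the authors' own, 1 per library, and gives each peak's fold enrichment over background. It also gives the authors' −log10 p and −log10 q, and a score of 10 times the latter, as deposited.

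Groups were taken from the labels. Genes were kept by filterByExpr (17494 of 55487), scaled by TMM and tested with edgeR 4.0.16 (R 4.3.3) quasi-likelihood F tests on 1 mean per group over all 12 libraries, with Benjamini-Hochberg adjustment over all genes tested and a threshold of 0.05. The residual degrees of freedom were 6. Scripts were tested on simulated data. A count of 0 is read as up to 3 counts, which covers counting error only. Peaks were counted where they overlapped by 1 base or more with a window of 1 kb either side of the RefSeq start, or with the gene span, on GRCm38.p6. Starts were used for 7 members, giving 21 combinations of gene and population per genotype rather than the 30 planned, and spans for all 10. Gene lengths were not used, so levels were not compared between genes. Figures were drawn with Matplotlib 3.10.9.

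Same-numbered libraries of 1 genotype deviated together (correlation of replicate differences 0.337 to 0.55 in 6 of 6 pairs of groups), but those of WT and KO in the same population did not (0.002, -0.022 and -0.092), so numbers were not used to pair genotypes. The main fit has no block for the numbers, so standard errors and p-values of the average do not allow for this correlation. Counts over the 6 KO libraries are likewise not counts of independent observations. The members and gene lists were chosen with earlier results of these data known. All members were named. From each list of related genes those past the threshold were named, or else the 3 with the smallest p, and for Prrx1 and Shox2 the 3 genes with the highest correlation of log2 CPM with an offset of 0.5. Alternatives were DESeq2 1.42.0, RLE scaling, no filter, a replicate block, limma 3.58.1 voom with a replicate block, fewer populations and each library left out. Leaving out the 3 KO libraries of the same number together was chosen after seeing the data.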

Additional observations from a re-analysis of the deposited data

How the results depend on the processing

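No member was called in any comparison, so no call of a member could be lost. Of 1170 member values recomputed over the alternatives, 16 reversed and 58 came under the threshold, 27 of them without the KO libraries numbered 1 and 6 without those numbered 2, fits with 1 library in each KO group and the spread taken from the WT pairs. In the average comparison 200 of 200 kept their direction. The causes were not tested. For the average KO comparison the 205 calls became 1693 with DESeq2, 1882 without a filter, 44 with limma voom and a replicate block within genotype, 0 with pBCSP and BCSP only, 9529 without the KO libraries numbered 1, 661 without those numbered 2, and 0 to 6147 when 1 library was left out: 0 without any WT library, pBCSP KO replicate 2 or BCSP KO replicate 2, while leaving out replicate 1 of KO gave 29 for pBCSP, 349 for BCSP and 6147 for SSC. The other comparisons had 0 calls. DESeq2 gave 174 for SSC, 99 for pBCSP, 123 for BCSP, 3 for the difference between populations, and 38, 77 and 29 for WT pBCSP against SSC, BCSP against SSC and BCSP against pBCSP. In the same order, no filter gave 395, 260, 337, 50, 133, 246 and 107. The voom replicate block gave 3 for BCSP and 1, 12 and 2 for the WT comparisons. Without the KO libraries numbered 1 the counts were 8818, 2819, 2977, 4012, 179, 518 and 320, and without those numbered 2 they were 14 for pBCSP and 189, 544 and 316 for the WT comparisons. With 1 library left out, they ranged from 0 to 5908 in SSC, 0 to 2082 for the difference between populations and 0 to 2 for WT BCSP against SSC.

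Under the replicate block with the number beside the group means, Shox2 was at 1.81 log2 (adjusted p = 0.0554) and Prrx2 at -3.38 (0.0614), and with the voom replicate block they were at 1.80 (0.163) and -3.56 (0.108); neither block changed the call of a member. Direction turned for member differences that were smaller than their standard errors or, for Msx1 in pBCSP, slightly larger. With 1 library left out, the KO difference ranged in SSC from -0.49 to 1.03 for Prrx1, -0.95 to 0.64 for Tbx15 and -0.67 to 0.80 for Osr1, in pBCSP from -0.39 to 1.05 for Msx1, and in BCSP from -0.02 to 0.42 for Msx1 and -1.92 to 0.28 for Msx2. Between WT populations it ranged from -0.13 to 0.60 (pBCSP against SSC) and -0.08 to 0.39 (BCSP against SSC) for Twist1, and from -0.38 to 0.03 (BCSP against SSC) for Msx1. Without the KO libraries numbered 2 the values were -0.49 for Prrx1 and -0.67 for Osr1 in SSC, and -0.02 for Msx1 and 0.28 for Msx2 in BCSP; without those numbered 1, Msx1 was at -0.41 in pBCSP. H3K4me1 at member starts fell from 17 WT combinations to 0 with −log10 q of 5 or more and to 10 with an overlap of 500 bases, and from 21 to 1 in KO with the q limit, under which 0.0074% to 14.7% of all genes kept a peak in the 6 lists; the first H3K27ac set in KO went from 0 to 1 with a 2.5 kb window. With 2 libraries per group, and 0 to 8 CPM for Prrx2, Twist2 and Msx2, precision is limited by the spread between libraries and by counts.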
